A study of Zea mays with 24 samples.

Results

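The subject here is a set of 8 maize genes of benzoxazinoid synthesis out of the 39634 genes listed in the authors' deposited tables: bx1 (GRMZM2G085381), bx2 (GRMZM2G085661), BX3 (GRMZM2G167549), BX4 (GRMZM2G172491), BX5 (GRMZM2G063756), bx8 (GRMZM2G085054), bx9 (GRMZM2G161335) and BX14 (GRMZM2G127418). They were chosen by their gene names, with their lower levels in 1 of the 2 groups of each table already known. Values of that contrast are therefore given below as a description, with no test of the set. The RNA came from leaf 2 of seedlings of the strain W22, aged 9 days, in 2 genotypes: wild type, and dct2-1, which is 1 mutant allele of dct2 (pDCT2 in the gene names used here), whose product carries dicarboxylates across the plastid envelope. Segment -4 is the base of the blade, without photosynthetic activity, -1 the zone where sugar import gives way to export, +4 lit mid-leaf tissue and +10 the leaf tip. The labels list 24 libraries, 3 for each of 8 combinations of genotype and segment, each a biological replicate pooled from 15 plants. All plants grew at 28 degrees C and 40% humidity with 16 h of light a day, supplemented at 500 umol m-2 s-1.

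For each segment the authors' deposited table gives each gene a single level in a group called q1 and a single level in a group called q2. It does not state which group is the wild type, and this was not inferred from the values. Levels are in FPKM, which counts fragments per length of transcript and per size of library, so they can be set side by side between genes. Changes are q2 relative to q1 throughout. A gene was called when the authors' adjusted p from Cuffdiff was under 0.05. Errors written after ± are standard errors of a log2 change implied by the deposited test statistic. The authors' calls do not follow from these errors alone. For example, the log2 change of the gene glu1 in -1, -1.78 ± 1.37, was called. That of GRMZM2G371063 in +10, 3.79 ± 1.18, was not. Levels of single libraries were not analysed here, so no SD can be given, overlap between groups cannot be read, and read depth is unknown. In the authors' deposited tables pDCT2 itself was lower in q2 in all 4 segments, at 37.8 and 7.84 FPKM (q1 and q2) in -4, 657 and 12.5 in -1, 633 and 8.91 in +4, and 310.4 and 9.50 in +10. Marker genes of the leaf's photosynthetic cell types were present, among them me3, the bundle sheath NADP-malic enzyme gene, at 3258 FPKM in q1 in +4, and pep1 (GRMZM2G083841), the mesophyll phosphoenolpyruvate carboxylase gene, at 10125 FPKM in q1 in +10. The names pck1 and ca1 matched no identifier. The 4 identifiers matched to bundle sheath markers summed to 702, 11697, 12430 and 6887 FPKM in q1 and 1357, 9832, 8191 and 7175 in q2, from base to tip. The 6 identifiers matched to mesophyll markers summed to 294, 15763 and 45589 FPKM in q1 and 859, 15001 and 29309 in q2 in -4, -1 and +10. In +4 the main pep1 gene and the main pdk1 gene were marked as having too much data to be tested and were each listed at 0 in 1 group, so no sum is given. Of the bundle sheath identifiers, pDCT2 included, 1 was called lower and 3 higher in -4, 1 and 0 in -1, 3 and 0 in +4, and 1 and 0 in +10. The identifier called lower in -4, -1 and +10 was pDCT2 itself, which the bundle sheath sums also include. In +4 those called lower were pDCT2 and the rbcS identifiers. The me3 and rbcS identifiers were not called in -1 or +10. Of the mesophyll identifiers, 0 were called lower and 3 higher in -4, 0 and 1 in -1, 1 and 0 of 4 tested in +4, and 2 and 1 in +10. The higher call in -1 was a minor pep1 match, GRMZM5G899080, at 1.08 FPKM in q1 and 3.58 in q2. That in +10 was a minor pdk1 match, GRMZM2G107196, at 35.5 and 46.8 FPKM. The main pep1 and pdk1 genes were not called in -1, and in +10 main pep1 was called lower and main pdk1 was not called. The part of these shifts in the results below was not tested, and in whole segments fewer cells of a type and less RNA per cell cannot be told apart.

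Benzoxazinoids are the main preformed defence compounds of young grasses such as maize, active against chewing insects and fungi. Synthesis starts in the plastid, where the bx1 product splits indole-glycerol phosphate to free indole. A chain of cytochrome P450 enzymes, encoded by bx2, BX3, BX4 and BX5, then adds oxygen to indole step by step. The glucosyltransferases encoded by bx8 and bx9 attach glucose, which makes the product stable and less toxic to the plant, and later enzymes, among them the methyltransferase encoded by BX14, modify the glucosides. When tissue is crushed, beta-glucosidases remove the glucose and free the toxic form.

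All members tested were lower in q2 in every segment, and the median gap was smallest at the leaf base. The authors' deposited tables called 8 of 8 members lower in -4, 8 of 8 in -1, 7 of 7 tested in +4 and 7 of 7 tested in +10, and none higher. Over all tested genes, 12.7% were called lower in -4, 8.22% in -1, 22.8% in +4 and 22.3% in +10. These calls belong to the contrast the choice used, so nothing is read from the comparison. The median log2 change of the tested members was -1.03 in -4, -2.26 in -1, -3.06 in +4 and -3.35 in +10, while the median over all tested genes lay between 0.01 and 0.02. With a change of at least 2-fold also required, 4 members counted as lower in -4, against 1.76% of all tested genes, and 7 in each of the other segments, against 3.86% in -1, 13.5% in +4 and 10.4% in +10. BX14 was the member not tested in +4 and +10, where its level was under 1 FPKM. The other 7 were called lower in all 4 of the authors' deposited tables, as were 177 of the 14633 genes tested in every segment (1.21%).

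**Figure D1:**
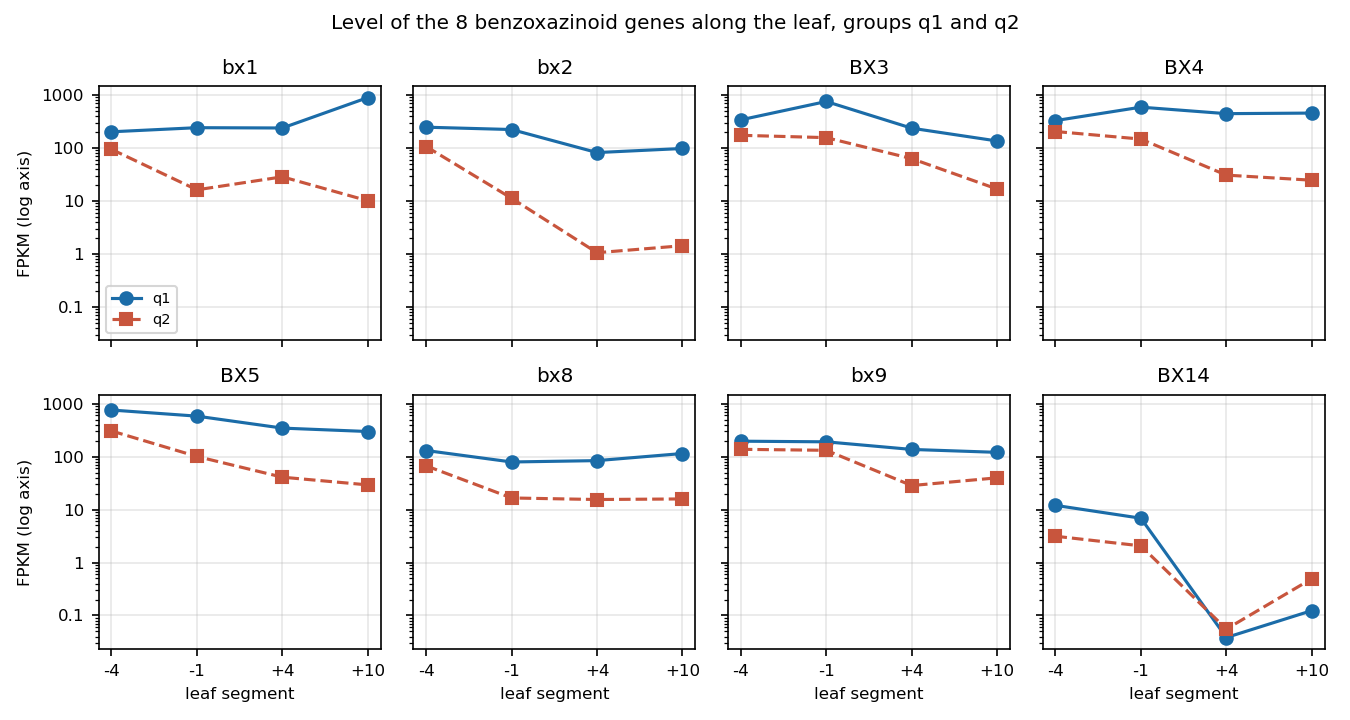
Level of each of the 8 genes in FPKM (shared log axis) in the 4 leaf segments, with 1 pooled value for q1 (circles) and 1 for q2 (squares) and no error bars, since levels of single libraries were not analysed. The q2 line lies below the q1 line throughout in every panel except BX14, where both groups are under 1 FPKM in +4 and +10.

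Summed over the 8 genes, the deposited levels came to 2204 FPKM in q1 and 1087 in q2 in -4, 2654 and 580.1 in -1, 1561 and 207 in +4, and 2107 and 138 in +10. The sum in q1 was thus 2.03-fold, 4.58-fold, 7.53-fold and 15.3-fold that in q2 from base to tip. In q1 the summed level stayed within 1561 to 2654 FPKM along the leaf, and in q2 it dropped at each step. As a share of all FPKM, the 8 genes made up 0.284%, 0.331%, 0.187% and 0.246% in q1 and 0.145%, 0.0777%, 0.0335% and 0.0205% in q2. Segments were normalized in separate tables, so levels across segments are side-by-side values and were not tested.

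The gene of the entry step, bx1, showed the steepest contrast at the tip. It lies at chromosome 4, 3256233 to 3258478 (deposited coordinates, whose build the sources used here do not name). The authors' deposited tables list bx1 at 201 FPKM in q1 and 93.8 in q2 in -4, 240.5 and 16.1 in -1, 237 and 28.4 in +4, and 890.4 and 10.0 in +10. Its q1 level was nearly flat over the first 3 segments and then rose, whereas its q2 level was highest at the base. The log2 changes of bx1 were -1.10 ± 0.26, -3.90 ± 0.38, -3.06 ± 0.33 and -6.47 ± 0.32, so that q1 exceeded q2 by 2.14-fold in -4 and by 88.7-fold in +10. By q1 level bx1 was number 123 of the 16272 tested genes in +10, and by q2 level number 8072.

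The first P450 gene, bx2, was close to 1 FPKM in the lit segments of q2. Its position is chromosome 4, 3260684 to 3262840, and its product oxidises the indole made by the bx1 product. In the authors' deposited tables bx2 stood at 246 FPKM in q1 and 106 in q2 in -4, 222 and 11.2 in -1, 81.5 and 1.05 in +4, and 97.3 and 1.42 in +10. Both groups were highest at the base, but q1 fell 2.52-fold from base to tip and q2 fell 74.5-fold. The log2 changes were -1.21 ± 0.27, -4.31 ± 0.39, -6.28 ± 0.56 and -6.10 ± 0.53. With a pseudocount of 1 FPKM, which matters at such low q2 levels, the changes in +4 and +10 were -5.33 and -5.34.

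The 3 later P450 genes were more abundant than bx2 and fell less outside the base. BX3 (chromosome 4, 2998633 to 3001404) was listed by the authors' deposited tables at 338 FPKM in q1 and 173 in q2 in -4, 750.4 and 156 in -1, 235 and 62.6 in +4, and 135 and 16.7 in +10. Its q1 level peaked in -1 and its log2 changes were -0.97 ± 0.28, -2.27 ± 0.34, -1.91 ± 0.30 and -3.01 ± 0.30. BX4 (chromosome 4, 3046686 to 3049508) stood at 327 and 204 FPKM in -4, 587 and 147 in -1, 442 and 30.6 in +4, and 454 and 24.5 in +10, again in the authors' deposited tables. It kept a high q1 level to the tip, with a range of only 1.79-fold, and its log2 changes were -0.68 ± 0.30, -2.00 ± 0.35, -3.85 ± 0.32 and -4.21 ± 0.28. BX5 (chromosome 4, 3108396 to 3110973), the most abundant member at the base, stood at 755 and 304 FPKM in -4, 579 and 100.3 in -1, 344 and 40.8 in +4, and 297 and 29.2 in +10 in the authors' deposited tables. BX5 declined along the leaf in both groups, by 2.54-fold in q1 and 10.4-fold in q2, with log2 changes of -1.31 ± 0.36, -2.53 ± 0.35, -3.08 ± 0.31 and -3.35 ± 0.27.

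The P450 genes are related in sequence, as are the glucosyltransferase genes and the methyltransferase genes of the pathway. The sources used here do not say how reads shared by similar genes were assigned, so the split of reads among such genes is uncertain. As deposited, the ratio of BX3 to bx2 in FPKM was 1.38 in q1 and 1.63 in q2 at the base, and 2.88 and 59.6 in +4. For BX5 over bx2 the ratio was 3.08 and 2.87 at the base and 4.22 and 38.8 in +4. For BX4 over bx2 it was 1.33 and 1.92 at the base and 5.43 and 29.1 in +4. The ratios to bx2 thus lay closer together in q1 and q2 at -4 than in +4, where bx2 had the most negative change.

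The 2 glucosyltransferase genes differed from each other. bx8 (chromosome 4, 3210118 to 3212030) was listed in the authors' deposited tables at 130.1 FPKM in q1 and 66.9 in q2 in -4, 79.0 and 16.5 in -1, 83.8 and 15.5 in +4, and 114 and 15.9 in +10. Its log2 changes were -0.96 ± 0.24, -2.26 ± 0.36, -2.44 ± 0.31 and -2.85 ± 0.27, a course like that of the P450 gene BX5. bx9 lies on chromosome 1, 180306605 to 180308510, and stood at 195 and 137 FPKM in -4, 189.8 and 131 in -1, 136 and 28.4 in +4, and 120.1 and 39.7 in +10 in the authors' deposited tables. It had the smallest change of all tested members in each segment except +4, with log2 changes of -0.51 ± 0.25, -0.53 ± 0.33, -2.26 ± 0.30 and -1.60 ± 0.26. In -1, where the log2 changes of the other 7 ran from -1.73 to -4.31, bx9 made up 22.6% of the summed member level in q2 and 7.15% in q1. Its ratio to bx8 in -1 was 2.40 in q1 and 7.94 in q2. In the deposited coordinates bx9 ends 1.56 Mb before the start of pDCT2 on the same chromosome.

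BX14, which acts late in the pathway, was the least abundant member and belonged to the base of the leaf. It lies on chromosome 2, 144192737 to 144194495. The authors' deposited tables list BX14 at 12.0 FPKM in q1 and 3.13 in q2 in -4 and at 6.86 and 2.06 in -1. In +4 it was at 0.0384 and 0.0554 FPKM, and in +10 at 0.124 and 0.494, without a test in either. The log2 change of BX14 was -1.94 ± 0.38 in -4, the most negative of the 8 members there, and -1.73 ± 0.62 in -1.

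**Figure D2:**
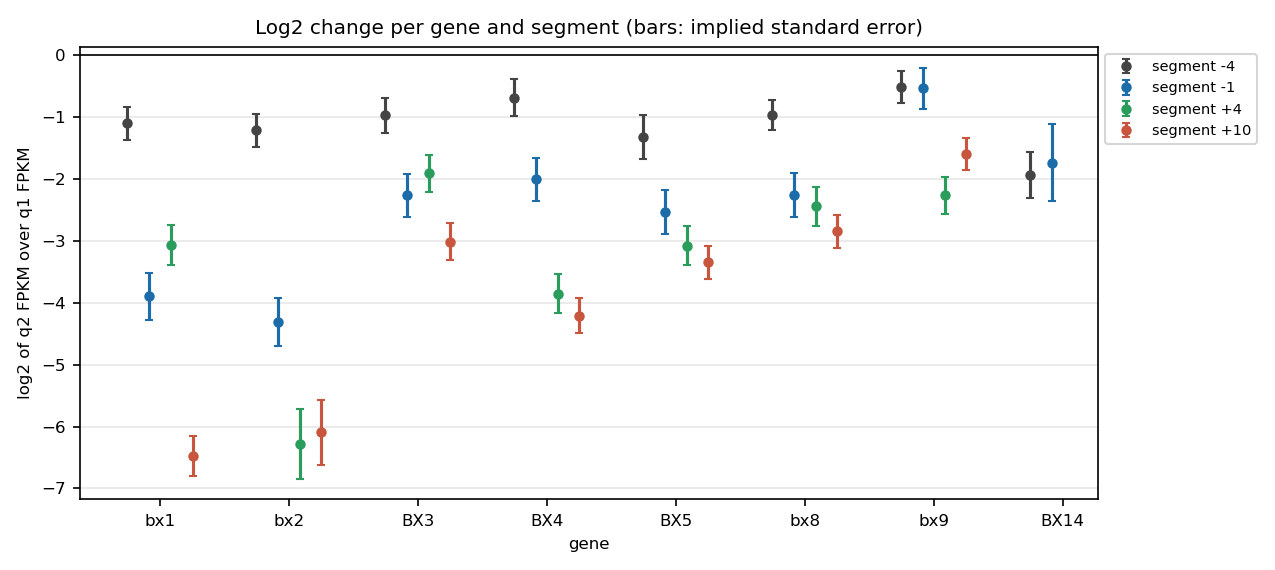
Log2 of q2 FPKM over q1 FPKM for each gene in the segments where it was tested, with bars of 1 standard error implied by the deposited statistic. All points lie below 0, from -0.51 (bx9 in -4) to -6.47 (bx1 in +10).

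The change of the 7 members tested throughout was more negative in both lit segments than at the base. Between -4 and +10 the log2 change moved by -5.37 ± 0.42 for bx1, -4.88 ± 0.59 for bx2, -3.53 ± 0.41 for BX4, -2.04 ± 0.41 for BX3, -2.04 ± 0.45 for BX5, -1.89 ± 0.36 for bx8 and -1.09 ± 0.36 for bx9. The error of such a difference combines those of both tables as if independent. From -4 to -1 the differences ran from -3.10 ± 0.48 for bx2 to 0.20 ± 0.73 for BX14, with bx9 at -0.02 ± 0.42. Between -1 and +4 they ran from -1.97 ± 0.68 for bx2 to 0.84 ± 0.50 for bx1, and 5 of 7 were negative. From +4 to +10 they ran from -3.41 ± 0.46 for bx1 to 0.67 ± 0.39 for bx9, again with 5 of 7 negative. These differences rest on the contrast that chose the genes and were not tested.

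The segment with the highest level was the same in both groups for 5 members and differed for bx1, BX3 and BX4. In q1, 5 members were highest in -4, 2 in -1 (BX3 and BX4) and 1 in +10 (bx1). In q2 all 8 were highest in -4, and 4 were lowest in +4 and 4 in +10. The share of bx1 in the summed member level was 9.13% in q1 and 8.63% in q2 in -4, but 42.2% in q1 and 7.28% in q2 in +10. Over the 8 group values, log2(FPKM + 1) of pairs of members had Pearson correlations with a median of 0.85, from 0.14 for bx1 and BX14 to 0.99 for bx2 and BX5. These 8 values share libraries and tables, so the correlations are descriptions only.

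Of the 8 genes, 6 lie on chromosome 4 within 264 kb, in the order BX3, BX4, BX5, bx8, bx1, bx2, with gaps of 45.3, 58.9, 99.1, 44.2 and 2.21 kb in the deposited coordinates. The close pair bx1 and bx2 had the most negative changes of the 6 in -1 and +10, but BX5 (-1.31) had the most negative in -4, and in +4 bx1 (-3.06) came after bx2, BX4 (-3.85) and BX5 (-3.08). The tables hold 1 other gene inside this stretch, GRMZM2G085303, listed at 0 in both groups in all 4 segments. Counting that gene, 52 other genes lay in the stretch and within 500 kb on either side of it, of which 24, 20, 19 and 18 were tested from base to tip. Of these neighbours, the authors' deposited tables called 2 lower and 5 higher in -4, 2 and 1 in -1, 4 and 3 in +4, and 6 and 2 in +10. Over all tested genes, the shares called lower were 12.7%, 8.22%, 22.8% and 22.3%, and the shares called higher were 15.2%, 9.48%, 19.5% and 21.5%. The median log2 change of the tested neighbours was 0.09, 0.00, -0.18 and -0.34 from base to tip. The 6 clustered members ranged from -0.68 to -1.31 in -4 and from -2.85 to -6.47 in +10. The members were chosen with their lower levels in this contrast known, so nothing is read from their difference from the neighbours. Single neighbours ranged from -1.13 to 1.16 in -4, -1.12 to 1.57 in -1, -2.44 to 2.69 in +4 and -3.62 to 3.79 in +10, so some lay within the members' ranges. Among them was GRMZM2G097981, at 5.27 FPKM in q1 and 0.968 in q2 in +4 (-2.44 ± 0.83) and 10.7 and 0.870 in +10 (-3.62 ± 1.08), called lower in both by the authors' deposited tables. The nearest tested neighbour, GRMZM2G085854 (3.29 kb beyond bx2), was at 1.29 and 0.62 FPKM in -4, where it was called, and at 6.32 and 4.77 FPKM in +10, where it was not. The neighbours called in at least 3 segments were GRMZM2G020508 and GRMZM2G070429. In the authors' deposited tables the log2 changes of GRMZM2G020508 ran 0.51 ± 0.54, 0.73 ± 0.42, -0.93 ± 0.53 and -2.28 ± 0.38, and those of GRMZM2G070429 ran 0.39 ± 0.27, -0.04 ± 0.35, -0.84 ± 0.34 and -0.74 ± 0.29. GRMZM2G020508 is listed at the same locus as GRMZM2G317743, so its values may hold reads of both.

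**Figure D3:**
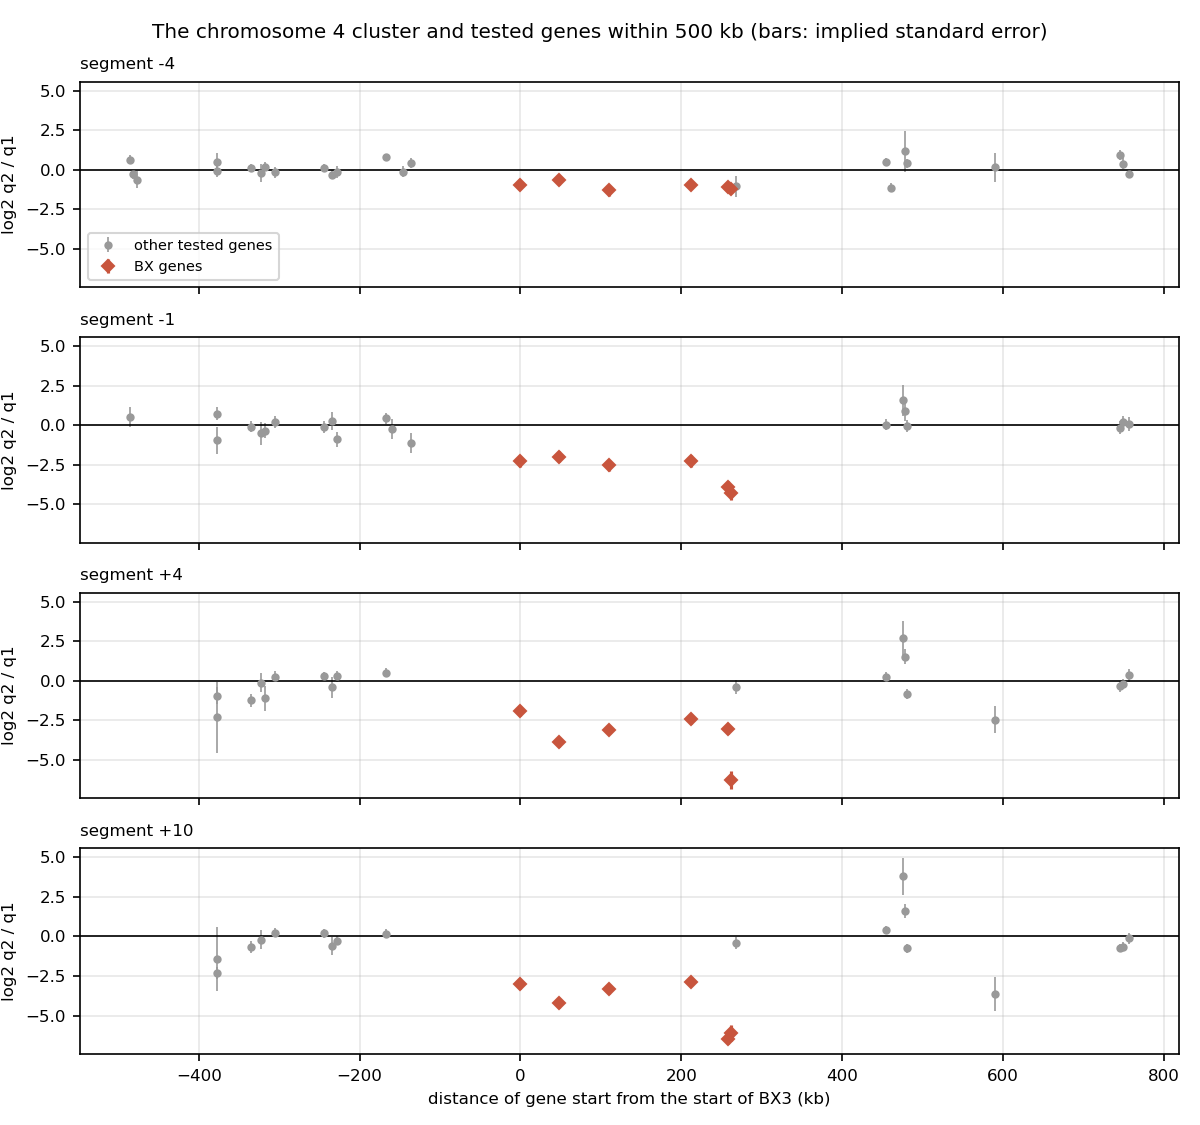
Log2 of q2 FPKM over q1 FPKM against the distance of each gene's start from that of BX3 in kb, for the 6 clustered genes (diamonds) and other tested genes within 500 kb (circles), 1 panel per segment, with bars of 1 implied standard error. The neighbours have medians from -0.34 to 0.09 and single values from -3.62 to 3.79, and the clustered genes lie lower in +10, between -2.85 and -6.47, than in -4, between -0.68 and -1.31.

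Genes that share the indole precursor, or that act on the finished glucosides, had calls in both directions. A search for 27 names from indole supply, the other BX steps and glucoside cleavage matched 7 genes of the tables. The names bx6, bx7, bx10, bx11, bx12 and bx13 matched none and were not analysed here. By the authors' deposited calls, 1 of 5 tested genes was lower and 2 higher in -4, 2 of 6 lower and 0 higher in -1, 2 of 6 lower and 2 higher in +4, and 2 of 5 lower and 2 higher in +10. The share of all tested genes called lower in -4 was 12.7% and that called higher 15.2%. These shares were 8.22% and 9.48% in -1, 22.8% and 19.5% in +4, and 22.3% and 21.5% in +10.

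Igl (GRMZM2G046163, chromosome 1, 288267536 to 288269662), whose product makes free indole that is released as a volatile, had the most negative changes of this list in +4 and +10. It was listed in the authors' deposited tables at 0.0676 FPKM in q1 and 0.199 in q2 in -4, without a test, 19.0 and 5.72 in -1, 36.6 and 1.13 in +4, and 30.8 and 0.364 in +10. The log2 changes of Igl were -1.73 ± 0.46, -5.02 ± 0.59 and -6.40 ± 1.14 in -1, +4 and +10, each called. An adjacent gene under the name igl1, GRMZM2G046191, was near or at 0 in all groups and not tested. TSA (GRMZM5G841619), the gene of the tryptophan synthase alpha subunit, which turns the same substrate to indole for tryptophan, was called in no segment. Its levels in the authors' deposited tables were 16.8 and 14.4 FPKM in -4, 41.5 and 31.8 in -1, 37.8 and 31.6 in +4, and 23.1 and 26.7 in +10, and its log2 changes lay between -0.38 ± 0.35 and 0.21 ± 0.29. The genes of the beta subunit, which joins indole to serine, were called higher in some segments and lower in none. TSB1 (orp1, GRMZM2G169593) was called higher in -4 (0.41 ± 0.24), +4 (0.83 ± 0.29) and +10 (0.96 ± 0.25) by the authors' deposited tables, with 70.3 FPKM in q1 and 137 in q2 in the last. TSB2 (orp2, GRMZM2G005024) was called higher in +4 (0.56 ± 0.35) and +10 (0.45 ± 0.33).

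The 2 beta-glucosidase genes, whose enzymes free the toxic form from its glucoside, had other courses. glu1 (GRMZM2G016890) was a gene of the leaf base, at 313 FPKM in q1 and 170.1 in q2 in -4 and at most 2.49 FPKM elsewhere in the authors' deposited tables. Its log2 change in -4 was -0.88 ± 0.35, a called fall close in size to those of bx8 and BX3 there, and it was also called lower in -1 at 1.76 and 0.512 FPKM (-1.78 ± 1.37). glu2 (GRMZM2G008247) went from 48.6 to 173 FPKM in -4 (1.83 ± 0.25, called higher), stood at 2104 and 2340 in -1, and was called lower in +4 (1285 to 785 FPKM, -0.71 ± 0.33) and +10 (524 to 194 FPKM, -1.43 ± 0.28), in the authors' deposited tables. At the base glu2 was thus called higher where all 8 BX genes were called lower. Those 8 were chosen with their lower levels known, so nothing is read from this contrast.

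**Figure D4:**
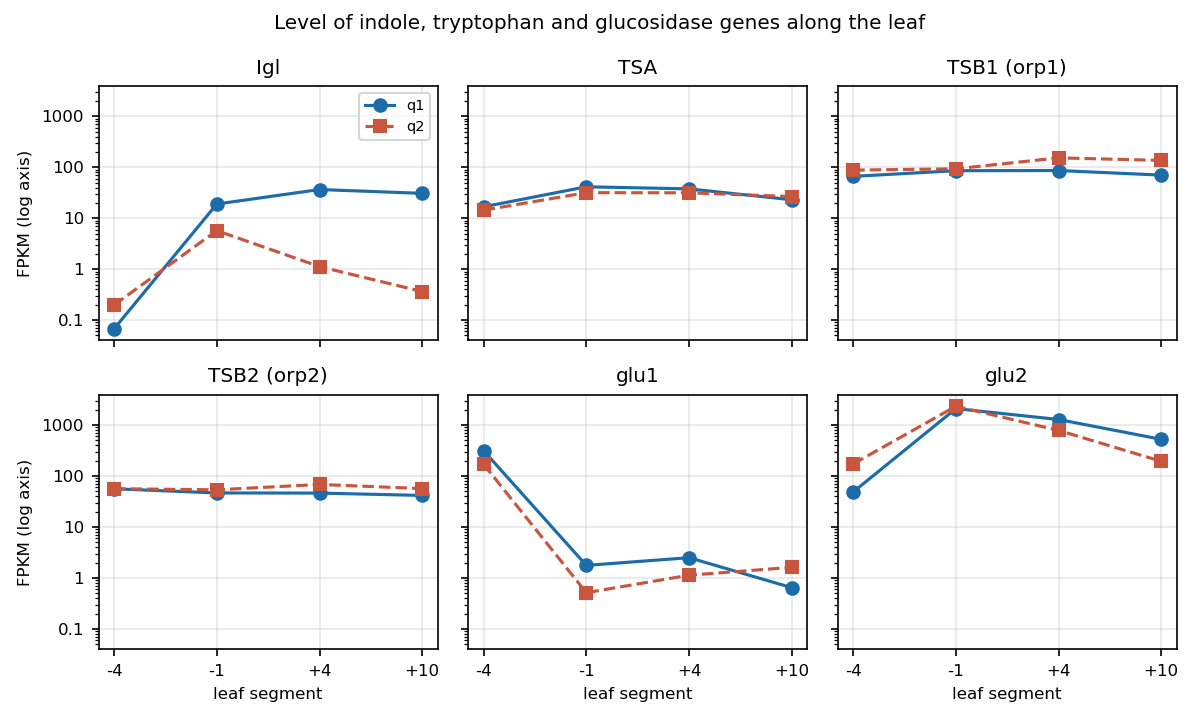
Level in FPKM (shared log axis) of Igl, TSA, TSB1, TSB2, glu1 and glu2 in the 4 segments, with 1 pooled value for q1 (circles) and 1 for q2 (squares) and no error bars. Igl separates from -1 to the tip, reaching 30.8 against 0.364 FPKM, while TSB1 lies higher in q2 in every segment.

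Other genes were ranked by the Pearson correlation of log2(FPKM + 1) with the mean standardised profile of the members over the 8 group values. Members fitted this profile, of which each is a part, unevenly, with correlations of 0.62 for BX14, 0.82 for bx1 and up to 0.995 for BX5. A gene like the profile is thus not equally like every member. Of 12422 genes tested in all segments and reaching 10 FPKM in at least 1 group, 78 (0.628%) had a correlation above 0.9. The 4 most alike among genes with a symbol were HEAT-like (GRMZM2G101502, 0.98), AUX27 (GRMZM2G142768, 0.97), elongin (GRMZM2G000623, 0.94) and Sal1 (GRMZM2G117935, 0.93). In +10 their log2 changes ran from -0.68 to -1.05, all smaller in size than those of the tested members, which ran from -1.60 to -6.47. AUX27 was there at 11.8 and 5.70 FPKM, elongin at 32.0 and 15.8, and HEAT-like at 16.1 and 9.76 in the authors' deposited table, the last without a call in any segment. The 5 most alike without a symbol were GRMZM2G140150, GRMZM2G029547, GRMZM2G038375, GRMZM2G145449 and GRMZM2G018275, with correlations from 0.97 to 0.98. Of these, GRMZM2G018275 had the largest change in -1, with 82.4 FPKM in q1 and 32.3 in q2 (-1.35 ± 0.35). The authors' deposited tables called it lower in all 4 segments, as they did GRMZM2G140150 and GRMZM2G029547. Because the member profile itself is lower in q2, the ranking favours genes that are lower in q2. Nothing is therefore read from the direction of their changes or calls. A correlation compares shape and not size, and with 8 values that share libraries it is a description only.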

How the data were processed

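RNA-seq was done on leaf segments. The submitters' processing notes name GSNAP, an aligner, and Cuffdiff, and the sources used here do not state versions, build or annotation. Per the file headers, the columns are those of Cuffdiff output, with 1 FPKM level per gene and group made by the authors. A signed statistic, used here as a score, and a p-value with its adjusted q-value stand beside each deposited level pair, all computed by the authors. The deposited calls equal an adjusted p under 0.05 for all 39634 genes. Fold changes were recomputed from FPKM with pandas 2.3.3 and numpy 2.4.6, with no pseudocount. The standard error is the log2 change over the deposited statistic. Formulas were checked on artificial data. Gene names came from the RefSeq gene table (Zm-B73-REFERENCE-NAM-5.0), in which all 8 members were found, and its coordinates were not used. No sequences were used here, so planned descriptions of proteins and promoters were not made.

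The members, the lists and the rules were chosen with earlier results of these data known. Genes named are all members, every matched gene of the list of related names, neighbours called in at least 3 segments, and the 5 genes with and the 5 without a symbol most like the member profile, of which 1 with a symbol is not reported here. The neighbour nearest to bx2 and the gene inside the cluster, named for their position, and GRMZM2G097981, named for its fall, were chosen after values were seen. A named marker or list symbol can match several identifiers, and all were kept.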

Additional observations from a re-analysis of the deposited data

How the results depend on the processing

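Read depth is unknown, so no counting error can be given. No paired analysis was possible because the tables hold 1 pooled value per group, and for the same reason no replicate could be left out. The 30 tested member changes stayed negative under all 5 alternatives (150 values), and 14 of these moved by more than their standard error. Scaling to the sum of FPKM moved 12 of them and a pseudocount of 1 FPKM moved 2, both of bx2. A pseudocount cannot turn a sign, and a filter of at least 1 FPKM in both groups left all 30 values as they were. Since the genes were also chosen with their lower levels known, nothing is read from the kept sign. The log2 ratio of the FPKM sums was -0.43 in +4 and -0.35 in +10, and changes relative to it had a member median of -2.63 and -3.00 there. At +4 the sums lack 3 genes without a usable level. Centring on the median of all genes moved no member change by more than its standard error. The number of members called lower was the same at an adjusted p under 0.01 except in -1, where bx9 dropped out and 7 stayed. It became 4 in -4 when a 2-fold change was required, against 1.76% of all tested genes. For an adjusted p under 0.01 the share of all tested genes is not given here, so nothing is read from counts at that threshold. Small counts moved more. For related genes, the 2-fold rule left 0 lower and 1 higher in -4, 1 lower and 0 higher in +4 and 0 higher in +10, and an adjusted p under 0.01 left 1 lower in -1 and 1 higher in each of -4, +4 and +10. For neighbours, an adjusted p under 0.01 left 1 lower in each of -4 and -1, 0 higher in -1 and 1 higher in +10. The 2-fold rule left 1 lower in -1, 2 lower in each of +4 and +10, 0 higher in -4 and -1 and 1 higher in +10. A window of 1000 kb held more tested genes, 37, 30, 27 and 24 from base to tip. Of these, 5, 3, 5 and 7 were called lower and 8, 5, 7 and 5 higher, with the shares over all tested genes given above. Correlation with the member profile for elongin was 0.81 with Spearman rho.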

Other observations

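The members off chromosome 4 were also set beside their neighbours, a comparison chosen after the data were seen. Within 500 kb of bx9 the authors' deposited tables tested 15, 15, 15 and 14 of 28 genes from base to tip, with 3, 2, 5 and 3 called lower and 3, 0, 1 and 2 called higher. The median log2 change of these neighbours was -0.10, -0.29, -0.26 and -0.18. Within 500 kb of BX14, 9 genes were listed, of which 5 and 3 were tested in -4 and -1, with 1 and 0 called lower and 1 and 0 called higher. Beside these counts, the shares of all tested genes called lower were 12.7%, 8.22%, 22.8% and 22.3% from base to tip. Those called higher were 15.2%, 9.48%, 19.5% and 21.5%.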
